A study of Homo sapiens with 4 samples.

Results

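The alpha- and beta-like globin genes encode the protein chains of haemoglobin, and 8 of them (HBE1, HBG2, HBG1, HBD, HBB, HBZ, HBA2 and HBA1) were followed here in newly made RNA of K562, an established human cell line from chronic myeloid leukaemia with erythroid features. The 8 genes were taken by symbol, by a rule that uses no measured value, but with earlier results of these data known. All 8 have an entry among the 60279 human genes of the count table, 7 passed the filter on low counts, and 6 are among the 11777 genes of the authors' deposited table of synthesis rates. RNA was labelled with 1 mM 4-thiouridine, a uridine analogue that cells build into RNA as it is transcribed, for 5 min or for 15 min, with 2 libraries for each label time (replicates 1 and 2). Labelled RNA was then fragmented, captured through its thiol group and sequenced (TT-seq). All 4 libraries came from K562 cells in the condition the labels give as UT, and no other genotype, agent or cell line was part of the series. RNA of S2 cells, a Drosophila line, was added before fragmentation at 15 µg for each 150 µg of K562 RNA, so that fly reads give a scale that is common to the libraries.

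In humans the beta-like genes lie on chromosome 11 in the order in which development uses them: HBE1 (epsilon) is the embryonic gene, HBG2 and HBG1 (gamma) are the fetal pair, and HBD (delta) and HBB (beta) are the adult genes. The alpha-like genes lie on chromosome 16, with embryonic HBZ (zeta) followed by the adult pair HBA2 and HBA1. A haemoglobin molecule joins alpha-like to beta-like chains around haem, and globin mRNAs are known as long-lived transcripts of red cell precursors. K562 cells are known for making embryonic and fetal rather than adult beta-like chains. A 5 min label mostly catches RNA that is still being made, while a 15 min label also holds more transcripts that have been finished and processed.

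Copies within the pairs are so alike that a read can often not be given to 1 gene. In the coding sequences of the GENCODE 29 transcripts, HBG1 and HBG2 differed at 2 of 444 bases and HBA1 and HBA2 at none of 429. The differences are C227T and C410G, with the HBG1 base first, the HBG2 base last and positions counted from 1 at the A of the start codon. The stretches below are shown because they hold the only coding bases that differ between these HBG1 and HBG2 transcripts. They are coding bases 196 to 258 and 379 to 438, and HBE1 is added over the second stretch for comparison. The bases of K562 itself were not examined. Capitals mark bases that differ from HBG2.
HBG2: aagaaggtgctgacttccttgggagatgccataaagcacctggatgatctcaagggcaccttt
HBG1: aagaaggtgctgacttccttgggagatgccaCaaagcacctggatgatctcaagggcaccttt
HBG2: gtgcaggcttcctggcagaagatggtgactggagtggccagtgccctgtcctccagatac
HBG1: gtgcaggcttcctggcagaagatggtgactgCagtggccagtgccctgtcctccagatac
HBE1: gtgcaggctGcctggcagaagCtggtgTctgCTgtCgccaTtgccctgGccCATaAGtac

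The alpha-like genes are shown over coding bases 364 to 423, where capitals mark bases that differ from HBA1, because this stretch is the same in both alpha genes and 21 of its 60 bases differ in HBZ.
HBA1: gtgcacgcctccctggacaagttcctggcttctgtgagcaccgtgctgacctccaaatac
HBA2: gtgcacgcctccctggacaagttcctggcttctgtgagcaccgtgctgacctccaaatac
HBZ: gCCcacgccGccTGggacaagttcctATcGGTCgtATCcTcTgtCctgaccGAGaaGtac

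Over the whole coding sequence HBE1 was 83.6% identical to HBG2, HBD was 92.8% identical to HBB, and HBZ was 68.5% identical to HBA1. Of all stretches of 50 bases in the reference transcript, 50.1% of those of HBG1, 64.8% of those of HBG2, 81.6% of those of HBA1 and 81.8% of those of HBA2 also occur in another gene, in each case mostly the other copy. The same share was 43.6% for HBZ, whose exons overlap HBM and which has the pseudogene HBZP1, 2.94% for HBB, 2.98% for HBD and 0.176% for HBE1. Values of single members of the gamma and alpha pairs are therefore uncertain, and the sums of each pair are given as well. Readthrough models that overlap the beta-like genes, such as AC104389.4, were left out of these percentages, whereas HBM was kept for HBZ. HBE1 shares 781 exon bases and HBG2 298 with AC104389.4, and stretches found only there are not in their percentages.

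Human reads ranged from 4339981 to 5051370 per library, and fly reads from 803914 to 897018 at 5 min and from 308978 to 318710 at 15 min. For each fly read there were 4.84 and 5.84 human reads at 5 min (replicates 1 and 2) and 15.8 and 15.3 at 15 min. A difference in this ratio between libraries moves every gene alike on the scale of fly reads. Each label time has 2 libraries, and nothing in the labels says that they came from separate cultures, so every p-value measures only the spread between these libraries. All 9 erythroid and K562 markers were measured, with a summed level of 2300 to 2340 reads per 1000000 human reads of the library (CPM) at 5 min and 2010 to 2030 at 15 min. Of the markers of other cells, MS4A1 (B cell) and LUM (fibroblast) had no read, and CD3E, CD2, TRAC, CD14, DCN and CDH1 had at most 3 reads in any library. The summed level of 4 T cell markers was 12.1 to 14.5 CPM at 5 min and 8.71 to 9.31 at 15 min, that of 3 B cell markers 2.56 to 4.61 and 10.5 to 10.6, that of 4 monocyte markers 20.3 to 21.5 and 22.9 to 23.2, and that of 4 fibroblast markers 2.3 to 2.56 and 0.792 to 1.48. KRT8, KRT18 and EPCAM carried an epithelial list of 4 genes at 341 to 380 CPM at 5 min and 266 to 283 at 15 min. The 4 markers of mature red cells summed to 224 to 233 CPM and 163 to 187 CPM. The part of these lists in the globin results was not tested.

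Each gene was compared between the label times on 2 scales. The share is a gene's part of all labelled human RNA, in CPM for single libraries and after TMM scaling in the test. The accumulation is a gene's reads set against the fly reads, given for single libraries as fly-scaled reads (reads of the gene for each 1000000 fly reads), and it shows how much labelled RNA built up per mass of total RNA when the label ran 3 times as long. In both, edgeR's quasi-likelihood test was fitted to all 17322 genes that passed the filter and p-values were adjusted over all of them by the Benjamini-Hochberg method, with an adjusted p of 0.05 as the threshold. The share was lower at 15 min for 21.3% of the genes tested (3692) and higher for 16.8% (2915). With total counts in place of TMM factors the balance turned, with 2792 lower (16.1%) and 4253 higher (24.6%), and the median log2 difference over all genes moved from 0.03 to 0.13. The accumulation was higher at 15 min for 98.4%, with a median of 3.2-fold, quartiles of 2.57-fold and 4.01-fold, and a 5th and a 95th percentile of 1.85-fold and 5.72-fold. In bulk RNA, fewer cells that make a transcript and less of it per cell cannot be told apart.

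The embryonic and fetal genes HBE1, HBG2, HBG1 and HBZ had a lower share at 15 min than at 5 min. That is 4 of the 8 genes, or 4 of 7 tested, against 21.3% of all genes tested. None of the 7 tested was called higher in share, against 16.8% of all genes tested, and HBB was not tested. With total counts the same 4 were lower, with log2 differences of -1.37, -1.33, -1.0 and -1.13. On the fly scale 5 of the 8 (HBG1, HBZ, HBD, HBA2 and HBA1) were called higher at 15 min, against 98.4% of all genes, and HBG2 and HBE1 were not. In CPM the libraries of the label times did not overlap, with 15 min lower, for 4 of the 8 genes (HBE1, HBG2, HBG1 and HBZ), against 25.7% of the genes tested. On the fly scale they did not overlap, with 15 min higher, for HBG1, HBD, HBA2 and HBA1, 4 of the 8, against 99.0%. HBA1, HBA2 and HBD built up 2.65-fold to 3.86-fold, all within the quartiles of the genes tested, while the 4 embryonic and fetal genes built up 1.13-fold to 1.45-fold. The median over the 7 tested was 1.45-fold, against 3.2-fold over all genes tested.

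**Figure D1:**
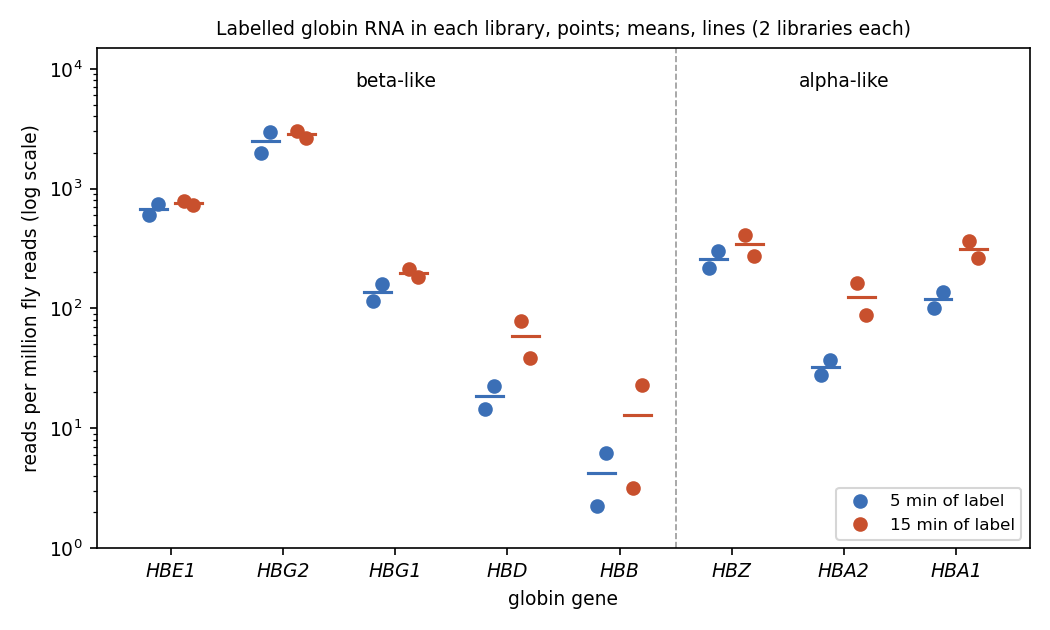
Labelled RNA of each globin gene in each library, as fly-scaled reads (reads for each 1000000 fly reads) on a log axis; points are libraries (5 min of label in blue, 15 min in red), short lines are the means of 2 libraries, and the dashed line parts beta-like from alpha-like genes. HBG2 lies highest in every library, and the label times overlap for HBE1, HBG2, HBB and HBZ but not for HBG1, HBD, HBA2 and HBA1.

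HBE1, the embryonic beta-like gene, is annotated on the reverse strand of chromosome 11 from 5268345 to 5505652 (GRCh38). It had 543 and 602 reads in the 5 min libraries (replicates 1 and 2) and 253 and 227 in the 15 min libraries. In CPM these were 125 and 128 at 5 min and 50.1 and 48.0 at 15 min. Both 15 min libraries lay far below both 5 min libraries. The share fell by 1.47 on the log2 scale (SE 0.0875, edgeR adjusted p = 1.99e-60), and only 0.294% of the genes tested had a lower fold change. Against the fly reads the picture was different, with 605 and 749 fly-scaled reads at 5 min and 794 and 735 at 15 min, so that the label times overlapped. The accumulation was 1.13-fold (log2 0.18, SE 0.17, edgeR adjusted p = 0.302). Without replicate 2 of the 5 min libraries its log2 was 0.34. The 5 min libraries were close in CPM for HBE1 but had 4.84 and 5.84 human reads for each fly read. That difference enters the fly-scaled reads of every gene.

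HBG2, which encodes the G-gamma chain of fetal haemoglobin, spans 5253190 to 5505605 on the same strand. It gave the most reads of the family, with 1786 and 2385 at 5 min and 962 and 822 at 15 min. Its level was 412 and 508 CPM at 5 min (460 ± 68.2, mean ± SD, n = 2) and 190 and 174 CPM at 15 min (182 ± 11.7). The 5 min libraries were both above the 15 min libraries, although they differed more from each other than the 15 min libraries did. The share fell by 1.44 (SE 0.0633, edgeR adjusted p = 2.73e-103), and 0.335% of the genes tested had a lower fold change. With DESeq2 the log2 difference was -1.45 with a much larger adjusted p of 1.92e-14. Leaving out 1 library moved the difference between -1.60 and -1.27, a range wider than this SE. On the fly scale HBG2 stood at 1990 and 2970 fly-scaled reads at 5 min and at 3020 and 2660 at 15 min. The label times overlapped, and the accumulation of 1.15-fold did not pass the threshold (log2 0.20, SE 0.166, edgeR adjusted p = 0.238). The 5 min libraries set this value: the log2 was -0.06 without 5 min replicate 1 (adjusted p = 0.429) and 0.51 without 5 min replicate 2 (adjusted p = 3.56e-10).

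HBG1, the A-gamma gene next to HBG2, spans 5248079 to 5249859. It had 104 and 128 reads at 5 min and 68 and 57 at 15 min, or 24.0 and 27.3 CPM against 13.5 and 12.1 CPM. Its 15 min libraries were again both lower, and the share fell by 1.11 (SE 0.17, edgeR adjusted p = 9.93e-10). In fly-scaled reads it stood at 116 and 159 at 5 min and at 213 and 184 at 15 min without overlap. The accumulation was 1.45-fold (log2 0.54, SE 0.22, edgeR adjusted p = 0.0148). This call was lost with DESeq2 (adjusted p = 0.096) and without 15 min replicate 1 (0.235), 15 min replicate 2 (0.0695) or 5 min replicate 1 (0.113).

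HBG2 had 17.2 and 18.6 reads for each HBG1 read at 5 min and 14.1 and 14.4 at 15 min, so HBG2 dominated the pair in every library. When the reads of both were summed into 1 gene, the share fell by 1.42 (SE 0.063, edgeR adjusted p = 1.36e-102). The accumulation of the sum was 1.16-fold with an adjusted p of 0.195.

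The adult beta-like genes had few reads. HBD, which encodes the delta chain of the minor adult haemoglobin and is annotated from 5232678 to 5243657, had 13 and 18 reads at 5 min and 25 and 12 at 15 min. HBD's share differed by a log2 of 0.04 (SE 0.374, edgeR adjusted p = 0.953), and its CPM overlapped between the label times (3.0 and 3.83, then 4.95 and 2.54). Its direction in share turned to -0.53 without 15 min replicate 1 and to -0.15 without 5 min replicate 1. On the fly scale HBD went from 14.5 and 22.4 fly-scaled reads to 78.4 and 38.8, without overlap. This was a 3.2-fold accumulation (log2 1.68, SE 0.394, edgeR adjusted p = 2.43e-05), the same as the median gene, and it was not called without 15 min replicate 1 (log2 1.08, adjusted p = 0.0945). HBD's exons share 88 bases with the pseudogene HBBP1.

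HBB, the adult beta-globin gene at 5225464 to 5229395, had 2 and 5 reads at 5 min and 1 and 7 at 15 min and did not pass the filter. Its 7 reads at 5 min carry an exact Poisson 95% interval of 2.81 to 14.4 reads, and its 8 reads at 15 min one of 3.45 to 15.8. Such intervals cover counting error only. With so few reads HBB has no value in the main test, and its libraries overlapped on both scales. Whether HBB changed cannot be said at this depth.

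Among HBZ, HBA1 and HBA2, embryonic HBZ was the one with a lower share at 15 min. HBQ1 of the same cluster, described below, also had a lower share (log2 -0.89, edgeR adjusted p = 0.00133). HBZ lies on the forward strand of chromosome 16 from 152687 to 154503. It had 195 and 242 reads at 5 min and 131 and 85 at 15 min, or 44.9 and 51.5 CPM against 25.9 and 18.0 CPM. Both 15 min libraries were lower, and the share fell by 1.23 (SE 0.131, edgeR adjusted p = 2.12e-19). HBZ gave 217 and 301 fly-scaled reads at 5 min and 411 and 275 at 15 min, which overlapped. The accumulation was 1.33-fold (log2 0.41, SE 0.193, edgeR adjusted p = 0.0345). It missed the threshold with DESeq2 (adjusted p = 0.141), without 15 min replicate 1 (log2 0.09, adjusted p = 0.8), without 5 min replicate 1 (0.223) and with both other ways of scaling to the fly genes (0.0512 and 0.056).

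HBA1 and HBA2 encode the same adult alpha chain. HBA1, at 176680 to 177522, had 91 and 110 reads at 5 min and 116 and 82 at 15 min, and its level was 21.0 and 23.4 CPM against 23.0 and 17.3 CPM, so that the label times overlapped. Its share difference of -0.24 did not pass the threshold (SE 0.159, edgeR adjusted p = 0.234). On the fly scale HBA1 rose from 101 and 137 to 364 and 265 fly-scaled reads, without overlap, a 2.65-fold accumulation (log2 1.41, SE 0.209, edgeR adjusted p = 2.94e-11).

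HBA2, at 172876 to 173710, had 25 and 30 reads at 5 min and 52 and 27 at 15 min. Its CPM of 5.76 and 6.39 at 5 min and 10.3 and 5.71 at 15 min overlapped, and its share difference was 0.30 (SE 0.269, edgeR adjusted p = 0.391). That direction rested on 15 min replicate 1, without which it was -0.20. On the fly scale HBA2 rose from 27.9 and 37.3 to 163 and 87.4 fly-scaled reads, a 3.86-fold accumulation (log2 1.95, SE 0.294, edgeR adjusted p = 5.65e-11).

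HBA1 had 3.64 and 3.67 reads for each HBA2 read at 5 min and 2.23 and 3.04 at 15 min. Summed into 1 gene, the pair differed in share by -0.10 (SE 0.14, edgeR adjusted p = 0.595) and built up 2.91-fold (adjusted p = 1.17e-14). The sum is opposite in sign to HBA2 alone in share, and neither passed the threshold.

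**Figure D2:**
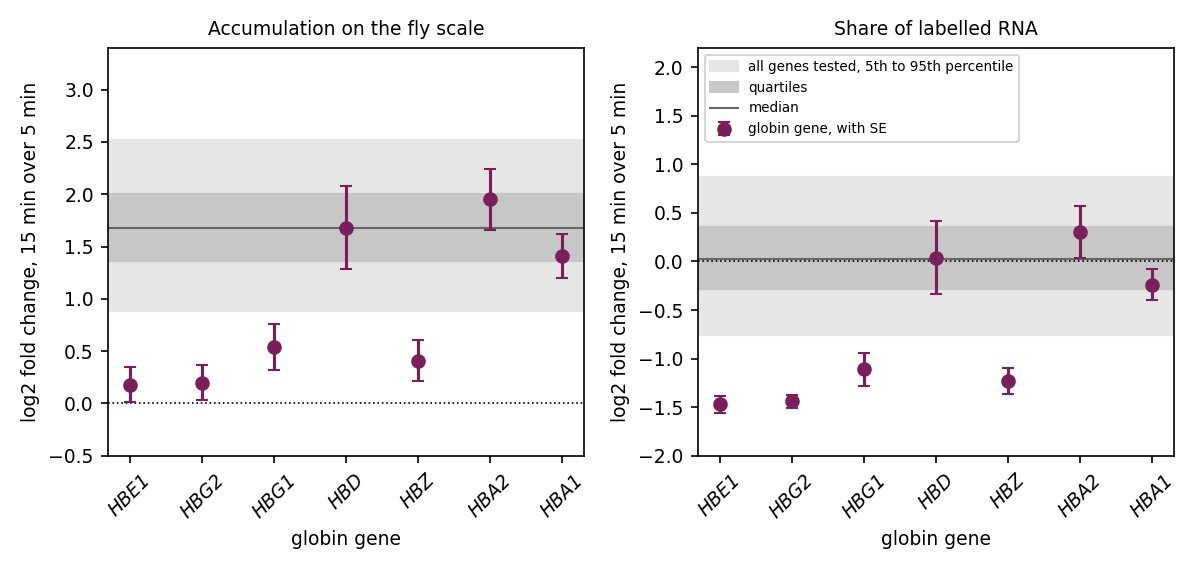
Log2 fold change of the 7 tested globin genes, 15 min over 5 min of label, with standard errors, for accumulation on the fly scale (left) and for the share of labelled RNA (right); grey bands span the 5th to 95th percentile and the quartiles of all genes tested, and the solid line is their median. HBE1, HBG2, HBG1 and HBZ lie below the 5th percentile in both panels, while HBD, HBA1 and HBA2 lie within the quartiles.

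The 8 genes together took 0.0636% and 0.075% of human reads at 5 min and 0.0318% and 0.0279% at 15 min. HBG2 alone made up 64.7% and 67.8% of these reads at 5 min and 59.8% and 62.3% at 15 min. The sum was 3080 and 4380 fly-scaled reads at 5 min and 5050 and 4270 at 15 min, which overlapped.

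Ratios between globin genes within a library do not depend on the scaling of the libraries. Here 9 ratios of reads per kb of exon were compared, and with 2 libraries against 2 an exact two-sided permutation test cannot give a p below 0.333. The 6 ratios that did not overlap between the label times had this p, which is 0.5 after Benjamini-Hochberg adjustment over the 9. Gamma to alpha, the sum of HBG1 and HBG2 over that of HBA1 and HBA2, was 15.2 and 16.8 at 5 min and 5.69 and 7.49 at 15 min. The ratio of HBZ to alpha was 1.86 and 1.91 at 5 min and 0.86 in both 15 min libraries. Both ratios were lower in each 15 min library than in either 5 min library. All beta-like over all alpha-like genes gave 6.78 and 7.09 at 5 min and 3.81 and 5.06 at 15 min, also without overlap. HBG2 to the pseudogene HBBP1 was 13.8 and 20.4 at 5 min and 9.09 and 7.2 at 15 min.

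HBG2 to HBG1 was 32.8 and 35.6 at 5 min and 27.0 and 27.5 at 15 min, also without overlap. The ratios of HBE1 to HBG2 and to HBZ overlapped. HBE1 to HBG2 was 0.275 and 0.228 at 5 min and 0.238 and 0.25 at 15 min (exact permutation p = 1.0). HBE1 to HBZ was 2.19 and 1.95 at 5 min and 1.52 and 2.1 at 15 min (exact permutation p = 0.667). With 2 libraries each, these 2 comparisons could not have shown a difference at the 0.05 level, and an overlap does not show that the ratios are equal.

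Ordered by mean level over all 4 libraries, in CPM per kb of exon, the genes were HBG2 at 369, HBE1 at 91.4, HBZ at 46.5, HBA1 at 25.4, HBG1 at 11.6, HBA2 at 8.51, HBD at 2.82 and HBB at 0.614. The ranges over libraries did not overlap for HBG2 and HBE1, for HBA1 and HBG1, for HBA2 and HBD, or for HBD and HBB. They overlapped for HBE1 and HBZ and for HBZ (23.8 to 68.3) and HBA1 (20.8 to 28.1), although both pairs kept this order in all 4 libraries. HBG1 and HBA2 also overlapped, and HBA2 was above HBG1 in 15 min replicate 1. The exon length matters for this scale: the GENCODE 29 model of HBG1 holds 1659 exon bases against 779 in its reference transcript, and the order was the same with that transcript's length.

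The models of HBG2 and HBE1 are unusual. They span 252 kb and 237 kb, because some annotated transcripts start at exons far upstream, past most of the olfactory receptor genes that follow HBE1. Of the 869 exon bases of HBG2, 255 lie outside its usual 3-exon transcript, and of the 961 of HBE1, 345 do. HBE1 also shares 781 exon bases with AC104389.4, a readthrough model that had 0 reads in 3 libraries and 2 in 15 min replicate 1. HBG2 shares 298 with it. In all, 865 exon bases of HBE1 and 335 of HBG2 lie in exons of other counted genes. How reads on such bases were counted is not stated in any source used here. The levels of HBE1 and HBG2 per kb of exon, their order and their ratio are therefore uncertain. The part of shared exons in them was not tested.

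Globin-like genes and transcripts outside the 8 were examined too. HBQ1 (theta), at the end of the alpha cluster, had 45 and 54 reads at 5 min and 32 and 30 at 15 min, a share difference of -0.89 (edgeR adjusted p = 0.00133) and a 1.69-fold accumulation (adjusted p = 0.00745). BGLT3, a long noncoding RNA between the pseudogene HBBP1 and HBG1, had 352 and 376 reads at 5 min and 173 and 174 at 15 min. BGLT3 fell by 1.28 in share (edgeR adjusted p = 2.3e-33) and built up 1.29-fold (adjusted p = 0.0421), and its ratio to HBG2 overlapped between the label times. HBBP1 itself, an untranslated relative of the beta-like genes, had 216 and 196 reads, then 177 and 191. Its share fell by 0.38 (edgeR adjusted p = 0.00475) and it built up 2.42-fold (adjusted p = 8.78e-12). HBM and HBZP1 had 1 read each over the 4 libraries, HBAP1, myoglobin (MB) and neuroglobin (NGB) had none, cytoglobin (CYGB) had 6 and ADGB had 5. A count of 0 allows a level of up to 0.691 CPM in the shallowest library (3 reads), for counting error only.

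Genes that follow HBE1 on chromosome 11 were taken by position, after values had been seen. The 280 kb from HBB's lower end to HBE1's far end hold the lower ends of 25 genes, and 16 of the 22 tested are neither globin genes nor HBBP1 or BGLT3. Of the 16, 7 were higher in share at 15 min and 1 (OR51B5) was lower, against 16.8% and 21.3% of all genes tested. They built up between 2.34-fold and 6.22-fold, with a median of 4.42-fold. The olfactory receptor gene OR52D1, whose lower end lies farthest out at 263 kb, built up 5.28-fold from 849 and 751 reads at 5 min to 1656 and 1462 at 15 min. The first of these olfactory genes, the pseudogene OR51AB1P, has its lower end 66.3 kb from that of HBB, and HBE1's lower end is at 42.9 kb. The 1.13-fold and 1.15-fold of HBE1 and HBG2 and the larger values of these genes thus lie within the span of the same annotated models. No source used here gives the strand setting of the counting, and reads of overlapping genes on opposite strands may not have been told apart.

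**Figure D3:**
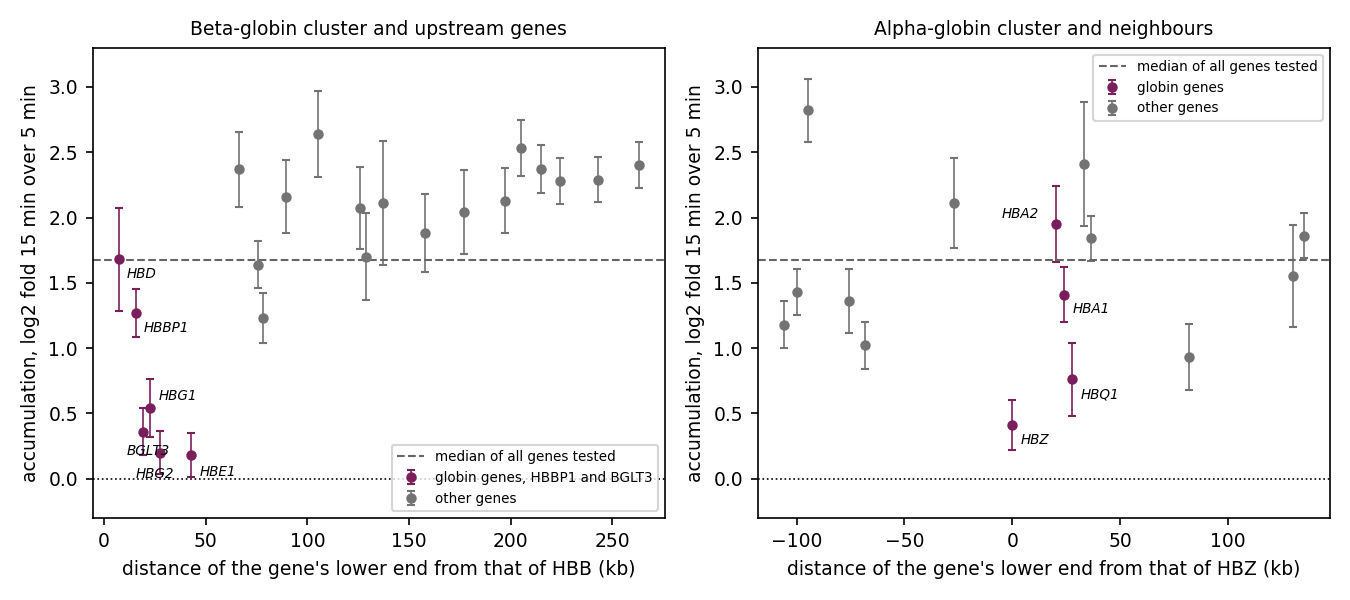
Accumulation (log2 fold, 15 min over 5 min of label, with SE) of each tested gene against the distance in kb of its lower end from that of HBB (left) or HBZ (right); globin genes, HBBP1 and BGLT3 are purple, other genes grey, and the dashed line is the median of all genes tested. HBE1, HBG2, HBG1 and BGLT3 lie between the dotted line of no change and the dashed line, at 1.13-fold to 1.45-fold. Of these, HBG1 and BGLT3 were called higher in the main test, and HBE1 and HBG2 were not. The 16 other genes beyond HBE1 lie between 2.34-fold and 6.22-fold, and HBA2 and HBA1 lie above HBZ and HBQ1.

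Of 20 listed neighbours of the beta cluster, 12 were tested and all 12 built up, against 98.4% of all genes tested, with a median of 3.4-fold against 3.2-fold. OR51I1, OR51I2 and OR52D1 were higher in share, and OR51B5, RRM1 and STIM1 lower, 3 of 12 each way against 16.8% and 21.3% of all genes tested. STIM1 was not called with total counts. These names, and those of other counts of 5 or fewer below, were given after their values were seen. RRM1, a subunit of ribonucleotide reductase, fell by 0.77 in share (SE 0.0743, edgeR adjusted p = 3.85e-23). Of 11 listed neighbours of the alpha cluster, 9 were tested and all 9 built up, also against 98.4%, with a median of 2.69-fold. RHBDF1 and LUC7L were higher in share, and POLR3K, NPRL3 and FAM234A lower, 2 and 3 of 9 against 16.8% and 21.3%. LUC7L was not called with DESeq2's size factors in edgeR. NPRL3, whose introns hold the main enhancers of the alpha-globin genes, fell by 0.63 (SE 0.102, edgeR adjusted p = 9.91e-09). RHBDF1, which lies on the other side of MPG, rose by 1.17 (SE 0.206, edgeR adjusted p = 1.59e-07). STIM1, a calcium sensor gene, built up 2.54-fold, LUC7L 3.57-fold, AXIN1 3.64-fold and SNRNP25 2.69-fold. For comparison, HBZ fell by 1.23 and HBA1 and HBA2 did not pass the threshold.

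Regulators and partners of globin expression were described from a list of 36 genes, of which 35 were tested. In share 16 were lower and 4 higher (ZBTB7A, ATF4, NR2C2 and PCBP2), against 21.3% and 16.8% of all genes tested, and the median log2 difference was -0.18, against 0.03 over all genes. With total counts 13 were lower and 8 higher, and with DESeq2's size factors in edgeR 16 and 2 (PCBP2 and NR2C2 were then not called). All 35 built up, against 98.4% of all genes tested, with a median of 2.77-fold, against 3.2-fold over all genes. CHD4, the remodelling enzyme of the NuRD complex that acts on the gamma genes, fell by 0.74 (SE 0.0609, edgeR adjusted p = 7.88e-32), and KDM1A, a histone demethylase, by 0.64 (SE 0.066, adjusted p = 2.1e-20). IGF2BP1, an RNA-binding protein of fetal cells, fell by 0.48, and PCBP2, a protein that binds the alpha-globin mRNA, rose by 0.15 (edgeR adjusted p = 0.0411). None of the 4 built up as little as HBG2: their accumulation was 1.87-fold, 2.01-fold, 2.25-fold and 3.47-fold.

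Haem is the other component of haemoglobin, and all 9 listed enzymes of its synthesis were tested. In share 5 were lower (ALAS1, ALAS2, UROD, CPOX and FECH) and 1 was higher (PPOX), against 21.3% and 16.8% of all genes tested, and with total counts 3 were lower (ALAS2, UROD and FECH). In accumulation 8 of 9 were higher, against 98.4%, with a median of 2.57-fold against 3.2-fold. UROD fell by 0.28 in share, and FECH, which inserts the iron, fell by 0.49. ALAS2, the erythroid form of the enzyme of the first step, was the exception. It fell from a mean of 17.0 CPM to 6.65 CPM, by 1.45 in share (SE 0.217, edgeR adjusted p = 3.49e-10), and its accumulation of 1.15-fold did not pass the threshold (adjusted p = 0.438). These values are close to those of HBG2 (-1.44 and 1.15-fold), and no test compared the genes.

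Genes with the pattern most like a globin gene were taken by the smallest Euclidean distance of centred log2 fly-scaled reads over 4 libraries, over the 11980 genes whose average log2 CPM was 3 or more. The nearest genes to HBG2 were PGRMC1, IGFBP4 and NDUFB7, at distances of 0.109, 0.113 and 0.145. For HBE1 they were PRDX5, AC011978.2 and IGFBP4, at 0.0673, 0.105 and 0.121. For HBG1 they were NDUFS5, MYL4 and TXN (0.0319 to 0.0685), for HBZ ARHGEF6, DRAP1 and POMP (0.0954 to 0.212), and for HBA1 WIZ, CSAD and THEM6 (0.051 to 0.0577). NDUFS5, for instance, built up 1.43-fold, and WIZ 2.71-fold. HBA2, HBD and HBB were too low for this comparison.

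The authors' deposited table of synthesis rates gives 1 value per gene, with no scale, error or number of samples, so its values are ranked within the table only. The median rate over 11777 genes was 0.0114. In the authors' deposited table the rate was 0.0744 for HBA1, 0.0392 for HBG1, 0.0199 for HBA2, 0.00659 for HBZ, 0.00571 for HBD and 0.00443 for HBG2. HBE1 and HBB have no value there. HBG2, which had the most reads per kb of exon of the family, thus had the lowest of the 6 deposited rates.

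Over 10674 genes with a rate above 0 and a mean of at least 10 reads, the authors' deposited rate correlated with reads per kb of exon at r = 0.878 on log scales, and with reads per kb of gene span at r = 0.791. These are descriptions across genes, which share libraries and gene models. The mean reads per kb of exon divided by the rate in the authors' deposited table was 387000 for HBG2 and 32800 for HBZ, against a median gene of 2920, and 99.9% and 98.7% of genes lay below them. For HBG1, HBA1, HBA2 and HBD the quotient was 1370, 1610, 2040 and 2350. Per kb of gene span, the quotient was 1330 for HBG2 and 1280 for HBG1, and 13600 for HBZ. HBG2 thus stood apart with exon length and stood beside HBG1 with span, whereas HBZ, which spans 1.82 kb, lay above 98.7% of genes on the first scale and above 99.4% on the second. No source used here gives the gene models behind the rates, and their part in these values was not tested.

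**Figure D4:**
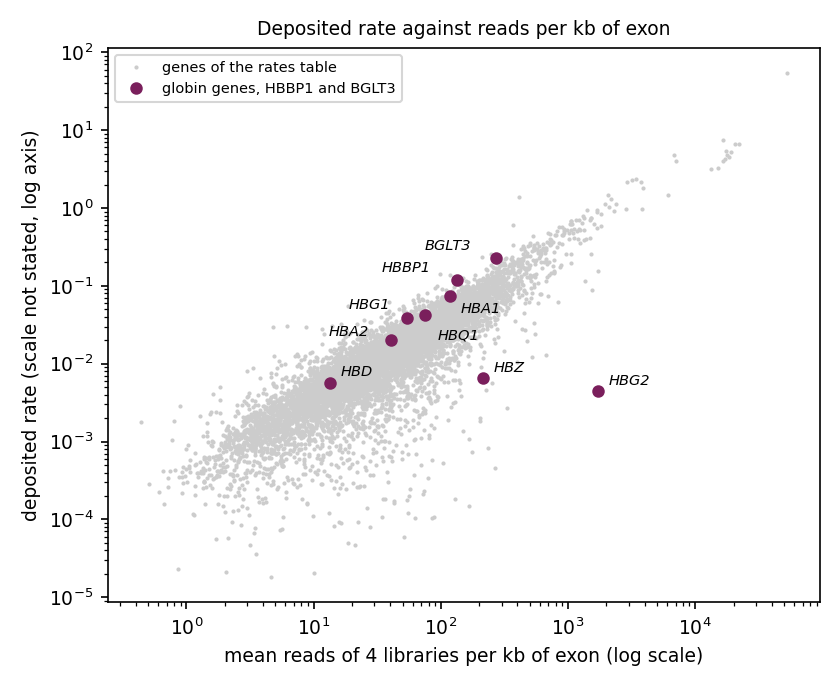
Rate in the authors' deposited table (log axis, scale not stated) against mean reads of 4 libraries per kb of exon (log axis) for 10674 genes in grey, with the globin genes, HBBP1 and BGLT3 in purple. HBG2 (rate 0.00443) and HBZ (0.00659) lie below the band of genes, and the others lie within it or along its upper edge.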

How the data were processed

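TT-seq of K562 cells was analysed from 4 libraries. The authors deposited raw counts of human genes and, in a separate table, of fly genes, with 1 column for each library. The submitters' processing notes name STAR 2.7, featureCounts with Subread 2.0.1, edgeR and the builds hg38 and dm6, without their roles; no source used here gives the feature counted, the strand setting or the handling of reads with several matches. The authors also deposited a rate per gene, used here as a score of unknown scale.

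Symbols, positions and exon lengths came from GENCODE 29 (GRCh38), which holds 56590 of the 60279 gene IDs, and printed sequences from its transcripts. Genes were kept by filterByExpr (minimum count 10). Counts were tested with edgeR 4.0.16 (R 4.3.3; glmQLFit, robust, and glmQLFTest), with TMM factors for the share and with fly read totals as library sizes for the accumulation. The standard error is the log2 fold change over the square root of F. CPM used all human reads of a library. DESeq2 1.42.0, other filters and scalings, a replicate block and leaving out each library were tried. The scripts were tested on simulated data.

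All 8 globin genes are named, and of the 4 gene lists the 3 genes with the highest mean CPM and the 2 with the smallest p in share, except for a result that is not reported here. The members and lists were chosen with earlier results of these data known. Libraries of 1 label time differed beyond sampling noise, with a chi-square of 1.55 (5 min) and 1.7 (15 min) for each degree of freedom, and the biological coefficient of variation was 4.08%.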

Additional observations from a re-analysis of the deposited data

How the results depend on the processing

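The falls in share of HBE1, HBG2, HBG1 and HBZ kept direction and threshold under all 10 alternatives tried, at -1.51 to -1.37, -1.60 to -1.27, -1.22 to -1.0 and -1.53 to -1.01, as did the accumulation of HBA1 and HBA2. The number of members called higher in accumulation, 5 of 8, was 3 with DESeq2 and 2 to 7 when 1 library was left out (2 without 15 min replicate 1, 3 without 5 min replicate 1), where the lone library of a label time is assumed to vary like the other pair. Leaving out 1 library gave a share difference of -0.20 to 0.64 for HBA2 and of -0.53 to 0.41 for HBD, and an accumulation of -0.06 to 0.51 for HBG2, with changes of sign (-0.15 for HBD without 5 min replicate 1). Counted alone, HBA2 had a share difference of 0.30, opposite to the summed pair. Over all genes, DESeq2 called 923 higher and 2370 lower in share, total counts without TMM factors 4253 higher and 2792 lower, and leaving out 1 library gave 1859 to 2343 higher and 2896 to 3387 lower. In 15 min replicate 1 alone, 6 of 8 genes kept their rank in level; ranks were unchanged without length and, in an alternative chosen after seeing the data, per kb of 1 reference transcript. With replicate number as a block, HBZ's accumulation missed the threshold (log2 0.41, edgeR adjusted p = 0.0614), 4 members were called higher, and no other member's call changed; deviations of same-numbered libraries correlated at 0.0484 over 2 pairs, and the labels do not say that numbers pair libraries. The causes of these changes were not tested. Depth limits HBB, HBD and HBA2 most, and shared sequence limits the members of each pair.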
